A study of Mus musculus with 24 samples.

Results

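The data follow 9 circadian clock genes of the mouse in NIH-3T3 cells, an established line of mouse embryonic fibroblasts, during the first 3 h after a change to fresh medium. The genes were Per1, Per2, Cry1 and Cry2 of the repressor limb, the repressor Bhlhe40, the nuclear receptors Nr1d1 and Nr1d2, and the output factors Dbp and Tef. All probe sets whose only gene symbol in the platform annotation was one of these were taken, which gave 15 of the 45037 probe sets on the array. Of these 15, 8 lay above a log2 signal of 4, the level used here as background, on at least 3 of the 24 arrays. These 8 covered 8 of the 9 genes with 1 probe set each, and Nr1d1 was the gene without one.

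Total RNA was hybridised to one-colour expression arrays. Cells of passage 5 to 15, grown in DMEM with NCS as the labels write it, were given prewarmed medium at the start, with 100 U/ml IFN-alpha, 100 U/ml IFN-gamma or mock treatment, and 4-thiouridine (4sU), a nucleoside that labels newly made RNA, was added to all groups but one. The 3 h groups (IFN-alpha, IFN-gamma and mock, 3 arrays each) had 500 µM 4sU from 150 to 180 min. The 1 h groups (IFN-alpha, IFN-gamma and mock, 4 arrays each) had 200 µM 4sU from 0 to 60 min, and a further mock group at 1 h without 4sU had 3 arrays. No array from before the medium change was analysed here, so each time difference below is 3 h against 1 h and not against resting cells. The 4sU dose and the labelling window changed along with the time, and the 3 cannot be told apart in these differences. The labels do not say whether replicates were separate cultures, so p-values measure the spread between arrays, which may be technical.

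In mammalian cells the clock is a feedback loop of transcription. CLOCK and BMAL1 (Arntl) bind E-box elements and drive the Per and Cry genes, whose proteins return to the nucleus and repress that drive, and they also drive the REV-ERB receptors Nr1d1 and Nr1d2, which repress Arntl, and output factors such as Dbp and Tef. Cultured fibroblasts carry this loop in each cell, and a pulse of fresh serum is known to bring their clocks into step, with Per1 and Per2 acting as fast-responding genes.

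The arrays had the profile of fibroblasts, with all 8 fibroblast markers measured above log2 4 (means of 9.96 to 13.8), against 1 of 7 leukocyte markers (Cd14, mean 5.35), 0 of 5 epithelial and 0 of 4 endothelial markers. RNA quality differed between arrays. The 3′ actin signal exceeded the 5′ actin signal by 2.22 to 3.43 log2 units on 5 arrays, replicate 2 of the IFN-alpha, IFN-gamma and mock groups with 4sU at 1 h and replicates 2 and 3 of the group without 4sU, and by 0.785 to 1.37 on the other 19. Replicates also spread more at 1 h, with a median SD over probe sets of 0.350 to 0.403, than at 3 h, where it was 0.118 to 0.127. Results that rest on those 5 arrays are given with and without them. As in any bulk sample, fewer cells expressing a gene and less RNA per cell cannot be told apart.

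At 3 h against 1 h, Bhlhe40 and Dbp fell in all 3 treatment arms, Tef fell in the 2 interferon arms, and Nr1d2 and Per2 fell in the IFN-gamma arm. Cry1, Cry2 and Per1 passed the test in no arm. In mock cells 2 of the 8 tested genes were lower and 0 higher at an adjusted p under 0.05 in limma, where 5.88% of all probe sets tested were lower and 5.45% higher. In IFN-alpha cells 3 of 8 were lower and 0 higher, against 4.57% of all probe sets lower and 4.71% higher. In IFN-gamma cells 5 of 8 were lower and 0 higher, against 5.91% of all probe sets lower and 7.31% higher. The median difference over the 8 genes was -0.56 in mock, -0.67 in IFN-alpha and -1.0 in IFN-gamma cells on the log2 scale, beside medians of 0.057, 0.026 and 0.069 over all probe sets tested. The 3 time comparisons use no array in common. Same-numbered arrays of the arms deviated together within a time, however, so the 3 are not independent of one another.

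**Figure D1:**
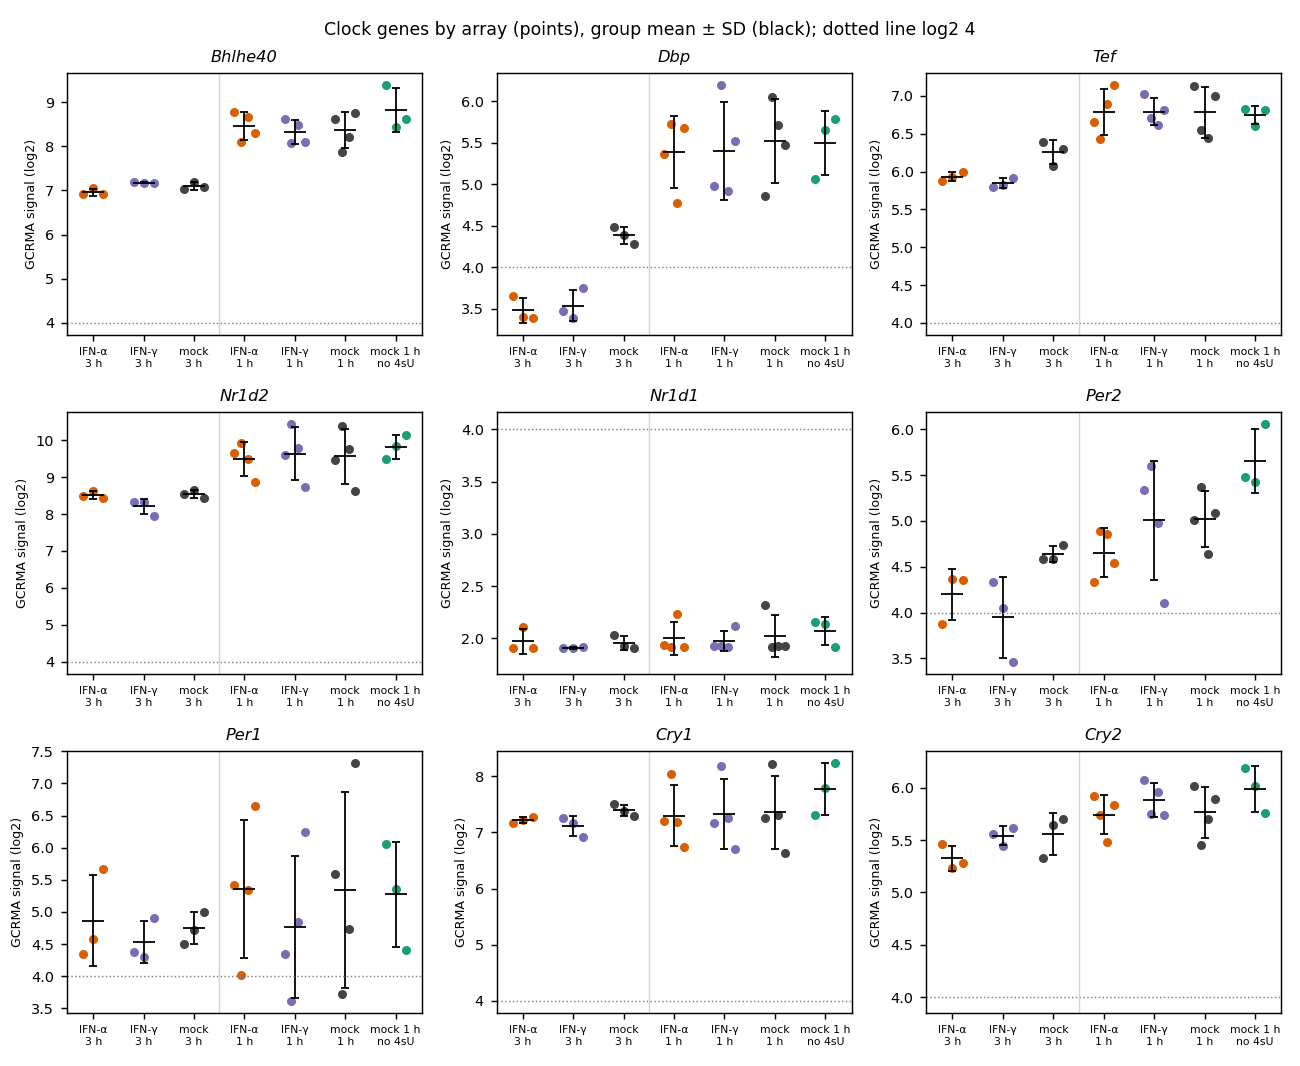
Log2 signal of the 9 clock genes on every array, 1 panel per gene with its own vertical scale, with 1 point per array, black bars for the group mean ± SD, a dotted line at log2 4 and the 3 h groups left of the 1 h groups. Bhlhe40 and Dbp lie lower at 3 h than at 1 h in each arm, Cry1 overlaps throughout, and all Nr1d1 points lie below log2 4.

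Bhlhe40 encodes a basic helix-loop-helix repressor that competes at E-boxes with CLOCK and BMAL1 and is known to answer to serum. Its log2 signals were 7.03, 7.20 and 7.09 in mock cells at 3 h, against 8.61, 7.87, 8.22 and 8.76 in mock cells at 1 h. In IFN-alpha cells they were 6.91, 7.05 and 6.92 at 3 h, against 8.78, 8.09, 8.65 and 8.30 at 1 h. In IFN-gamma cells they were 7.19, 7.17 and 7.17 at 3 h, against 8.62, 8.08, 8.47 and 8.10 at 1 h. Every 3 h array lay below every 1 h array of its arm. The difference was -1.26 ± 0.23 in mock cells (SE, limma adjusted p = 0.00114), which is a 2.40-fold lower signal at 3 h. It was -1.50 ± 0.23 in IFN-alpha cells (adjusted p = 0.000125) and -1.14 ± 0.23 in IFN-gamma cells (adjusted p = 0.00188). Bhlhe40 was the member with the largest difference in mock cells, and it stayed past the threshold there without any single array. Over the 18 alternatives tried in each arm, its adjusted p ranged between 9.98e-07 and 0.11 in mock cells and between 6.4e-07 and 0.0695 in IFN-gamma cells, with the call lost in 1 alternative in each, and between 2.04e-09 and 0.0354 in IFN-alpha cells, where it was always kept.

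Dbp and Tef encode PAR-domain leucine zipper factors that bind D-box elements in clock output genes and in Per genes. The tested Dbp probe set is of a kind that may match more than 1 transcript, and the other Dbp probe set was above log2 4 on 1 array only. Dbp had log2 signals of 4.48, 4.39 and 4.28 in mock cells at 3 h, against 4.86, 6.05, 5.71 and 5.48 at 1 h. In IFN-alpha cells it had 3.65, 3.40 and 3.39 at 3 h, against 5.37, 5.73, 4.78 and 5.68 at 1 h. In IFN-gamma cells it had 3.47, 3.38 and 3.75 at 3 h, against 4.98, 6.20, 4.93 and 5.53 at 1 h. The groups did not overlap in any arm, and all 6 interferon arrays at 3 h lay below the background level. In mock cells the difference was -1.14 ± 0.30 (SE, limma adjusted p = 0.0179), a 2.21-fold lower signal. With the 3 h arrays raised to the background level, Dbp was at least 2.62-fold lower in IFN-alpha cells and at least 2.65-fold lower in IFN-gamma cells, where the limma adjusted p of the values so raised was 0.00381 and 0.00282. On the values as deposited the adjusted p was 0.000182 and 0.000219, and the IFN-gamma call was lost in 1 of 17 alternatives (0.0774). The mock call was narrow. It was lost without replicate 2 of mock 1 h (adjusted p = 0.0647) and without replicate 1, 2 or 3 of mock 3 h (0.0541, 0.0634 and 0.0659), and its adjusted p ranged between 0.00369 and 0.137 over all alternatives.

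Tef had log2 signals of 6.40, 6.08 and 6.30 in mock cells at 3 h, against 7.13, 6.54, 6.45 and 7.0 at 1 h. In IFN-alpha cells it had 5.88, 5.93 and 5.99 at 3 h, against 6.66, 6.44, 6.89 and 7.14 at 1 h. In IFN-gamma cells it had 5.80, 5.83 and 5.92 at 3 h, against 7.02, 6.70, 6.61 and 6.81 at 1 h. Here too every 3 h array lay below every 1 h array of its arm. The difference passed the test in IFN-alpha cells (-0.85 ± 0.18, SE, limma adjusted p = 0.00313) and IFN-gamma cells (-0.94 ± 0.18, adjusted p = 0.00107), and in each of these arms the call was lost in 1 of 18 alternatives (highest adjusted p of 0.109 and 0.107). In mock cells it was -0.52 ± 0.18 and did not pass (adjusted p = 0.0596), though it did without replicate 3 of mock 1 h (-0.63, adjusted p = 0.0319) and without the 5 arrays of low 5′ actin signal (-0.60, adjusted p = 0.0257), and in 5 of 18 alternatives in all. The other 2 Tef probe sets were below log2 4 on every array.

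Promoter windows are shown for Dbp and Tef, and for Nr1d2 and Cry1, so that the letters upstream of these starts can be read beside the values. RefSeq windows of 300 bases around an annotated start (GRCm38.p6), 250 before it and 50 after, were searched. They were on hand for 7 of the 9 genes, 9 windows in all, and not for Per2 and Bhlhe40. Only the 250 bases before the start are written, 5′ to 3′ on the gene's own strand, with capitals for motif matches on either strand. The motifs searched were the E-box CACGTG (in 7.15% of all 32851 windows), the E-prime box CACGTT (4.68%), the cAMP response element TGACGTCA (1.79%) and its shorter form TGACG, which lies within it (20.8%), the D-boxes TTATGTAA (0.938%) and TTACGTAA (0.119%), and the core AGGTCA bound by REV-ERB and ROR receptors (16.3%). Dbp lies on chr7:45705100-45710203, Tef on chr15:81802673-81826863, Nr1d2 on chr14:18204056-18239106 and Cry1 on chr10:85131700-85185054.
Dbp, chr7:45704997-45705246, plus strand: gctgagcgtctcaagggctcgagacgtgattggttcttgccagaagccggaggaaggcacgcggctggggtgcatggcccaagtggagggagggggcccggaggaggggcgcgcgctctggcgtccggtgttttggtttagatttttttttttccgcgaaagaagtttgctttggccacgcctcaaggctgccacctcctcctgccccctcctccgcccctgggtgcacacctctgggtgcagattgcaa
Tef first start, chr15:81802423-81802672, plus strand: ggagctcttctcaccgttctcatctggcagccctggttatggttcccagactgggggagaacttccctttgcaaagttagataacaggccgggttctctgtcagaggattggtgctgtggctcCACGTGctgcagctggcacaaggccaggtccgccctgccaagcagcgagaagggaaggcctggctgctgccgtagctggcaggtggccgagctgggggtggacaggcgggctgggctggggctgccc
Tef second start, chr15:81811164-81811413, plus strand: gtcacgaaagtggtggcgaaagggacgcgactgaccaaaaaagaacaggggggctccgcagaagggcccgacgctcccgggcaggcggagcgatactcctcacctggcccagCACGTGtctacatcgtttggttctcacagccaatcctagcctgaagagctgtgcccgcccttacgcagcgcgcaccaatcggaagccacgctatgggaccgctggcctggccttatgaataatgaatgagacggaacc
Nr1d2, chr14:18239107-18239356, minus strand: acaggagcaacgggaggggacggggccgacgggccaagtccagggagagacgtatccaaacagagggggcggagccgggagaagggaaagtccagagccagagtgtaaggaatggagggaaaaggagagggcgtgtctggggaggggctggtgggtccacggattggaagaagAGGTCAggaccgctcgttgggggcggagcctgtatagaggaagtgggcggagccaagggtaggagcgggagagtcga
Cry1, chr10:85185055-85185304, minus strand: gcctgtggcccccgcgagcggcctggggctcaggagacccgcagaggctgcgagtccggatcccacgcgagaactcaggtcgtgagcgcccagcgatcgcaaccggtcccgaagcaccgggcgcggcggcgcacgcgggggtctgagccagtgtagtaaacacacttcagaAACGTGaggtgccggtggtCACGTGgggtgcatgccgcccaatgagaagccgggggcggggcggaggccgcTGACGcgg

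Counted back from the start, the 2 Tef windows each hold 1 E-box, with its first base at -127 in the first and at -138 in the second. Cry1 holds an E-box at -60, an E-prime box at -79 and a TGACG at -8, and Nr1d2 holds an AGGTCA core at -77. The Dbp window holds none of the letters searched. Its annotated start lies inside the span given above for the gene, so part of the bases shown for Dbp lie within that span. Of the windows not shown, the first Per1 window holds an E-box at -166, a TGACG at -246 and an AGGTCA core at -137, the second Per1 window a TGACG at -132, the Cry2 window an E-prime box at -166 and a TGACG at -209, and the Nr1d1 window an E-prime box at -28. A match of letters is a description of these windows and not evidence of binding.

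Nr1d1 and Nr1d2 encode REV-ERB alpha and beta, which repress through the ROR response element. Nr1d1 had 1 probe set and lay at or under 2.32 on all 24 arrays, so no difference was measured for it. Nr1d2 had log2 signals of 8.54, 8.65 and 8.44 in mock cells at 3 h, against 9.47, 10.38, 9.77 and 8.61 at 1 h. In IFN-alpha cells it had 8.50, 8.62 and 8.43 at 3 h, against 9.65, 9.94, 9.49 and 8.86 at 1 h. In IFN-gamma cells it had 8.32, 8.34 and 7.96 at 3 h, against 9.60, 10.44, 9.79 and 8.72 at 1 h. The groups were apart in the interferon arms, while in mock cells replicate 4 at 1 h lay below the highest 3 h array. The difference was -1.43 ± 0.36 in IFN-gamma cells (SE, limma adjusted p = 0.0105), a 2.70-fold lower signal. It was -1.01 ± 0.36 in mock cells (adjusted p = 0.0704) and -0.97 ± 0.36 in IFN-alpha cells (adjusted p = 0.0972), neither past the threshold. The IFN-gamma call was lost without replicate 3 of IFN-gamma 3 h (adjusted p = 0.0532, with a range of 0.000127 to 0.0671 over all alternatives), and the mock difference passed without replicate 4 of mock 1 h (-1.33, adjusted p = 0.0159). The mock and the IFN-alpha difference each passed in 2 of 18 alternatives, array weights among them (adjusted p of 0.0144 in mock and 0.000928 in IFN-alpha cells), and reached 0.237 and 0.243 at the highest. The other Nr1d2 probe set was below log2 4 on every array.

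Per1 and Per2 encode the PERIOD proteins, the repressors that respond quickly to serum and cAMP signals. The 3 h log2 signals of Per2 were 4.59, 4.58 and 4.74 in mock cells, 3.88, 4.36 and 4.36 in IFN-alpha cells and 4.34, 4.04 and 3.46 in IFN-gamma cells. At 1 h they were 5.01, 5.37, 4.63 and 5.09 in mock cells, 4.33, 4.89, 4.86 and 4.54 in IFN-alpha cells and 5.34, 5.60, 4.98 and 4.10 in IFN-gamma cells. Per2 was close to background throughout, with 1 of 3 arrays below log2 4 in each interferon group at 3 h, and the times overlapped in every arm. It fell in IFN-gamma cells by the test (-1.06 ± 0.29, SE, limma adjusted p = 0.0185) and did not pass in IFN-alpha cells (-0.45 ± 0.29, adjusted p = 0.357) or mock cells (-0.39 ± 0.29, adjusted p = 0.38). The IFN-gamma call was lost without replicate 2 of IFN-gamma 1 h (adjusted p = 0.0685) and without replicate 2 or 3 of IFN-gamma 3 h (0.0528 and 0.117), with a range of 0.000929 to 0.146 over all alternatives. The other 2 Per2 probe sets were below log2 4 on every array.

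Per1 varied more among replicates at 1 h than between the times. Its 3 h log2 signals were 4.50, 4.73 and 5.00 in mock cells, 4.34, 4.57 and 5.67 in IFN-alpha cells and 4.38, 4.31 and 4.90 in IFN-gamma cells. Its 1 h log2 signals were 5.60, 3.72, 4.73 and 7.32 in mock cells, 5.42, 4.01, 5.35 and 6.64 in IFN-alpha cells and 4.34, 3.62, 4.84 and 6.25 in IFN-gamma cells. Replicate 4 was the highest and replicate 2 the lowest in all 3 arms, and the 3 h arrays lay inside the 1 h range. The difference in mock cells was -0.60, with a 95% interval of -2.07 to 0.88 (limma adjusted p = 0.584), which leaves both a large fall and a rise within it. The mock difference was 0.061 without replicate 4 of mock 1 h, and the IFN-gamma difference, -0.24 on all arrays, was 0.26 without replicate 4 of IFN-gamma 1 h.

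Cry1 and Cry2 encode the cryptochromes, which join the PERIOD proteins in repressing CLOCK and BMAL1. Cry1 had log2 signals of 7.50, 7.39 and 7.29 in mock cells at 3 h, against 7.26, 8.22, 7.31 and 6.64 at 1 h, so the 3 h arrays lay inside the 1 h range. The same held in IFN-alpha cells, with 7.17, 7.22 and 7.27 at 3 h, against 7.21, 8.05, 7.18 and 6.75 at 1 h, and in IFN-gamma cells, with 7.26, 7.17 and 6.92 at 3 h, against 7.16, 8.19, 7.25 and 6.70 at 1 h. Its difference was 0.038 in mock cells (95% interval -0.68 to 0.76, limma adjusted p = 0.953), -0.075 in IFN-alpha cells (-0.80 to 0.65) and -0.21 in IFN-gamma cells (-0.93 to 0.51). The sign of these small values turned under several settings, among them both rescalings in mock cells, where the difference was -0.071 with arrays centred on their medians and -0.023 after quantile normalization.

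Cry2 had log2 signals of 5.33, 5.64 and 5.70 in mock cells at 3 h, against 6.01, 5.45, 5.70 and 5.90 at 1 h. In IFN-alpha cells it had 5.46, 5.24 and 5.29 at 3 h, against 5.92, 5.74, 5.48 and 5.83 at 1 h, and in IFN-gamma cells 5.56, 5.45 and 5.62 at 3 h, against 6.07, 5.75, 5.96 and 5.74 at 1 h. The mock groups overlapped, and both interferon arms had every 3 h array below every 1 h array. The difference was -0.21 in mock cells (limma adjusted p = 0.387), -0.42 in IFN-alpha cells (adjusted p = 0.107) and -0.34 in IFN-gamma cells (adjusted p = 0.162), and passed in none. It did pass in both interferon arms with arrays centred on their medians (adjusted p = 0.0264 in IFN-alpha and 0.0227 in IFN-gamma cells), after quantile normalization and with array weights, with a range over all alternatives of 0.0124 to 0.312 in IFN-alpha and 0.0157 to 0.374 in IFN-gamma cells.

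**Figure D2:**
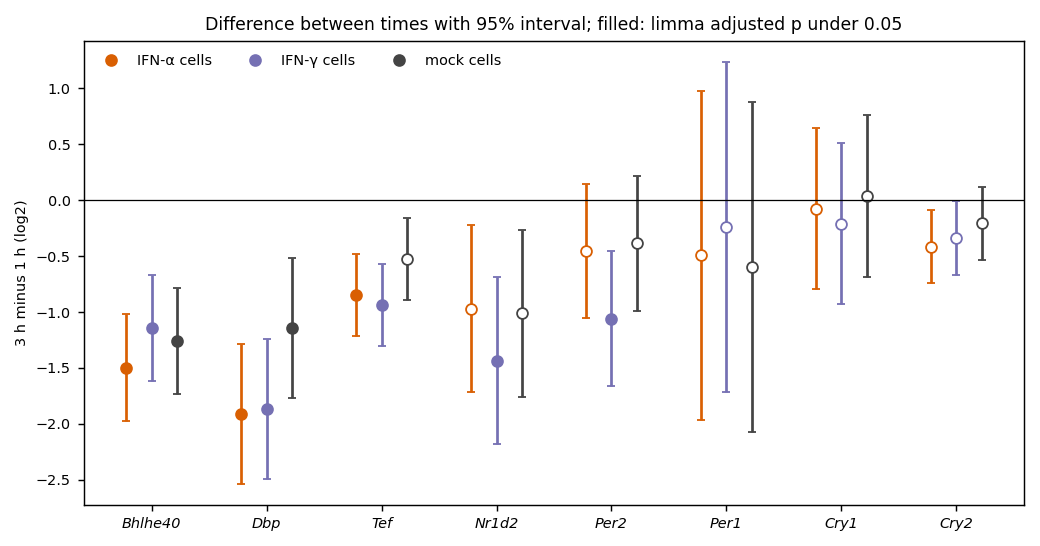
Log2 difference of each of the 8 tested genes at 3 h against 1 h in IFN-alpha, IFN-gamma and mock cells, with bars for the 95% interval and filled points at a limma adjusted p under 0.05. The intervals of Bhlhe40 and Dbp lie below 0 in all 3 arms, and those of Per1 and Cry1 span 0 in all 3.

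Counted without a model, 3 of the 8 genes (Bhlhe40, Dbp and Tef) had all mock arrays at 3 h below all at 1 h, where 13.1% of all probe sets did. In each interferon arm 5 genes did, the same 3 with Nr1d2 and Cry2, against 14.4% of all probe sets in the IFN-alpha arm and 13% in the IFN-gamma arm. Without the 5 arrays of low 5′ actin signal the calls were Bhlhe40, Dbp and Tef in mock and IFN-alpha cells and the same 5 genes as before in IFN-gamma cells.

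**Figure D3:**
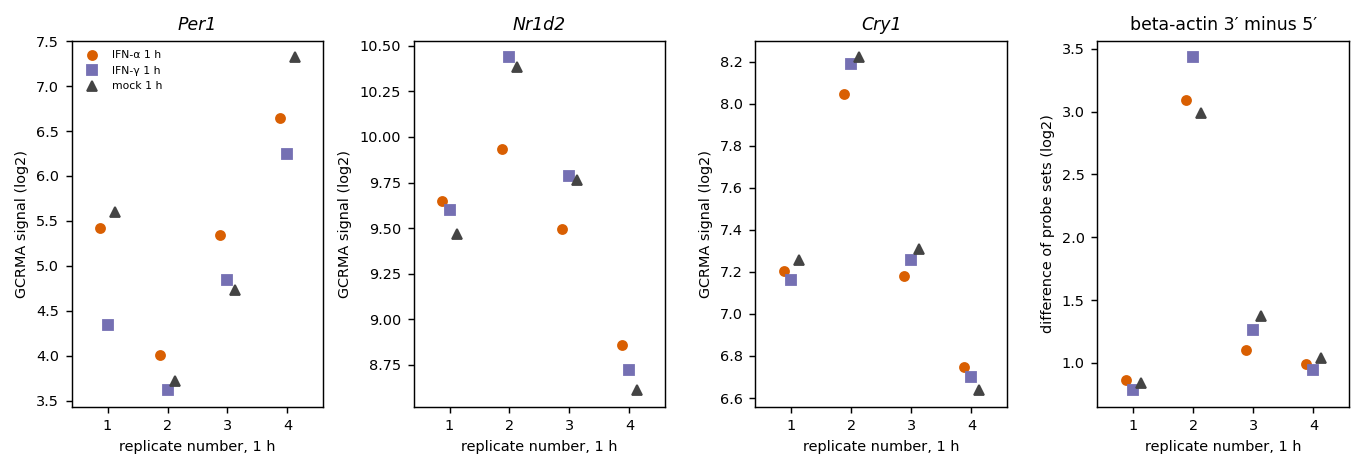
Log2 signal of Per1, Nr1d2 and Cry1 by replicate number in the 1 h groups with 4sU, 1 point per array and 1 symbol per treatment, beside the 3′ minus 5′ actin signal (log2) of the same arrays. In all 3 arms Per1 is highest in replicate 4 and lowest in replicate 2, Nr1d2 and Cry1 are highest in replicate 2 and lowest in replicate 4, and replicate 2 has the highest actin difference.

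For Per1, Nr1d2 and Cry1 the spread at 1 h followed the replicate number rather than the treatment. Not every member kept such an order. Per2 was lowest in replicate 3 of mock, replicate 1 of IFN-alpha and replicate 4 of IFN-gamma. Nr1d2 and Cry1 were highest in replicate 2 and lowest in replicate 4 of the IFN-alpha, IFN-gamma and mock groups with 4sU, the reverse of Per1. Replicate 2 of these groups was also the one with low 5′ actin signal, and the part of that in these values was not tested beyond leaving the arrays out. Same-numbered arrays of a time deviated together over all probe sets, with correlations of 0.465 to 0.914 at 1 h and 0.128 to 0.647 at 3 h between each interferon group and mock.

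A second mock reference at 1 h had received no 4sU. Against it, mock cells at 3 h were lower for 4 of 8 genes (Bhlhe40, Nr1d2, Dbp and Per2) and higher for 0, where 9.52% of all probe sets were lower and 9.13% higher. This comparison shares the mock 3 h arrays with the one above, so it is not a second measurement of them. The mock arrays at 3 h had the values given above, and the group without 4sU had log2 signals of 9.38, 8.44 and 8.62 for Bhlhe40, 9.50, 9.83 and 10.15 for Nr1d2, 5.06, 5.65 and 5.79 for Dbp, and 5.48, 5.43 and 6.06 for Per2. All 3 mock arrays at 3 h lay below all 3 of these for each of the 4 genes, and also for Tef and Cry2, which makes 6 of 8 genes against 21.8% of all probe sets. The limma differences were -1.71 ± 0.24 for Bhlhe40 (SE, adjusted p = 7.72e-05), -1.28 ± 0.38 for Nr1d2 (adjusted p = 0.0264), -1.12 ± 0.32 for Dbp (adjusted p = 0.0222) and -1.02 ± 0.31 for Per2 (adjusted p = 0.0279). In the group without 4sU, Tef had 6.83, 6.61 and 6.81 (difference of mock 3 h from it -0.49, adjusted p = 0.0721), Cry2 6.19, 6.02 and 5.76 (-0.43, adjusted p = 0.0757), Cry1 7.32, 7.78 and 8.24 (-0.39, adjusted p = 0.455) and Per1 6.05, 5.35 and 4.41 (-0.53, adjusted p = 0.626), none past the threshold. Tef and Cry2 did pass under both rescalings, with adjusted p of 0.0189 and 0.015 with arrays centred on their medians, which made 6 genes called, and ranged up to 0.213 and 0.37 over all alternatives. Bhlhe40 passed in every alternative run. Nr1d2, Dbp and Per2 each lost the call without replicate 3 of the group without 4sU (adjusted p of 0.125, 0.111 and 0.154) and without any 1 of the 3 mock arrays at 3 h (0.0542 to 0.0835), and Nr1d2 and Dbp also without replicate 2 of the group without 4sU (0.0712 and 0.077). Without the 2 arrays of low 5′ actin signal in that group, and those in the others, only Bhlhe40 was called, with 1 array left to stand for the group and assumed to vary like the others.

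At 1 h, mock cells with 4sU were set against mock cells without it. None of the 8 genes was called, against 0.0311% of all probe sets called by limma in either direction, and 1 of 8 had an unadjusted p under 0.05, as 7% of all probe sets did. That gene was Per2, at 5.01, 5.37, 4.63 and 5.09 with 4sU, against 5.48, 5.43 and 6.06 without. The 4 arrays with 4sU all lay below the 3 without, as 2.9% of all probe sets did, with a difference of -0.63 (95% interval -1.23 to -0.033, adjusted p = 0.68). Bhlhe40 differed by -0.45 with overlapping arrays (95% interval -0.93 to 0.025, adjusted p = 0.742), and Dbp and Tef by 0.024 and 0.033.

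The interferons were then compared with mock at the same time, with the mock arrays shared between both comparisons. The fit took no account of replicate numbers, although same-numbered arrays of a time deviated together. With the replicate number as a block, no member call within a time changed. At 1 h limma called 0 of 8 clock genes for IFN-alpha and 0 for IFN-gamma, with 0 at an unadjusted p under 0.05 in either, where 0.259% and 0.492% of all probe sets were called and 1.6% and 3% had such a p. The member differences at 1 h lay between -0.58 and 0.11, both extremes in IFN-gamma cells (Per1 and Cry2). The widest 95% interval was that of Per1 in IFN-gamma cells, at -1.94 to 0.79, and the narrowest that of Cry2.

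At 3 h limma again called 0 of 8 genes for each interferon, where 1.55% of all probe sets were called for IFN-alpha and 1.99% for IFN-gamma, while 1 and 3 genes had an unadjusted p under 0.05, as 3.14% and 4.77% of all probe sets did. All 3 interferon arrays lay below all 3 mock arrays for 4 genes with IFN-alpha (Per2, Cry1, Dbp and Tef), where 13.4% of all probe sets did. With IFN-gamma this held for 5 genes (the same 4 and Nr1d2), where 13.2% of all probe sets did. Dbp had the largest differences, -0.90 with IFN-alpha (limma adjusted p = 0.492) and -0.85 with IFN-gamma (limma adjusted p = 0.481). Since every interferon array lay below background, these amount to at least 1.31-fold lower with either interferon when raised to it. Tef differed by -0.32 with IFN-alpha (limma adjusted p = 1) and by -0.41 with IFN-gamma (limma adjusted p = 0.933), and Per2 by -0.44 (limma adjusted p = 1) and -0.69 (limma adjusted p = 0.851).

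These calls turned on how the spread was estimated. The main fit shared a single spread per probe set over both times. Replicates spread more at 1 h (median SD of 0.350 to 0.403) than at 3 h (0.118 to 0.127), so the 3 h tests carry the 1 h spread. With array weights, Per2, Dbp and Tef passed for both interferons, with limma adjusted p of 0.0294, 5.49e-06 and 0.0343 for IFN-alpha and 0.0421, 4.47e-06 and 0.00671 for IFN-gamma, and their adjusted p ranged up to 1 over the other alternatives. With only the arrays compared in the fit, Dbp passed for IFN-alpha (limma adjusted p = 0.00442) and IFN-gamma (limma adjusted p = 0.00666). Whether the time difference itself depended on interferon was tested as an interaction. No gene was called by limma, with 0 at an unadjusted p under 0.05, where 0.953% and 0.829% of all probe sets were called for IFN-alpha and IFN-gamma and 2.35% and 3.11% had such a p. The interaction for Dbp was -0.77 with IFN-alpha (95% interval -1.65 to 0.12) and -0.73 with IFN-gamma (-1.61 to 0.16), values that rest on signals below background. With values under log2 4 set to 4 it was -0.25 and -0.265. The passing of Tef in the interferon arms and not in mock cells is thus not shown to be a difference between the arms, as its interactions were -0.33 (-0.85 to 0.19) and -0.42 (-0.94 to 0.10). The same is true of Nr1d2 and Per2, with IFN-gamma interactions of -0.42 (-1.47 to 0.63) and -0.67 (-1.52 to 0.18).

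The rest of the clock pathway was read in mock cells at 3 h against 1 h. Of 14 other genes of the core loop 8 were tested, each on its brightest tested probe set. In limma 0 rose and 0 fell, where 5.45% of all probe sets rose and 5.88% fell. Their median difference was 0.29, beside 0.057 over all probe sets. Arntl, which encodes BMAL1, had a mean of 6.67 ± 0.076 at 3 h and 6.16 ± 0.42 at 1 h (SD, n = 3 and 4), with all 3 h arrays above all 1 h arrays and a limma adjusted p of 0.164. Its partner Clock differed by 0.30, the D-box repressor Nfil3 by 0.28 and Per3 by -0.55, none past the threshold (adjusted p of 0.221, 0.645 and 0.176). For Rora, an activator at the element that REV-ERB represses through, the brightest probe set differed by 0.34 (adjusted p = 0.338), while the other 2 passed, at 0.85 (adjusted p = 0.0484) and 1.15 (adjusted p = 0.00669). Npas2, which can stand in for Clock, was below background and not tested. Hlf, named after its values were seen, differed by 0.875 in mock cells (limma adjusted p = 0.058), with all 3 h arrays above all 1 h arrays. Against mock without 4sU it was called higher (1.03, adjusted p = 0.0293). Its differences of 0.41 in the IFN-alpha arm and -0.29 in the IFN-gamma arm did not pass (adjusted p of 0.421 and 0.517).

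Among post-translational regulators, 15 of 19 listed genes were tested, and 1 rose and 1 fell, where 5.45% of all probe sets rose and 5.88% fell in this comparison. The deubiquitinase gene Usp2 rose by 1.29 (limma adjusted p = 0.00263), with 0.84 on its other probe set (adjusted p = 0.216). Sirt1, a deacetylase gene, fell by 0.63 (adjusted p = 0.0455) with overlapping arrays, and Csnk1e, a kinase for PERIOD proteins, differed by 0.46 (adjusted p = 0.228). Of 15 genes of serum and cAMP input to the clock, 11 were tested and 3 fell, against the same 5.88%, which were Srf (-1.27, adjusted p = 0.000379), Fos (-1.17, adjusted p = 0.0272) and Egr1 (-0.90, adjusted p = 0.000129), all known to be induced within minutes of serum. The other Srf probe set differed by 0.22 (adjusted p = 0.9).

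Of 13 rhythmic output genes 9 were tested, and 2 fell and 1 rose, against 5.88% and 5.45% of all probe sets. Noct, which encodes the protein nocturnin and is known to be induced by serum, had a mean of 7.77 ± 0.11 at 3 h and 10.53 ± 0.29 at 1 h (SD, n = 3 and 4), a difference of -2.76 (limma adjusted p = 7.27e-09). Klf9, a zinc finger factor, differed by -1.66 (adjusted p = 2.36e-08), and Tsc22d3, a glucocorticoid-induced gene, rose by 0.82 (adjusted p = 0.0364), with 0.95 on its other probe set (adjusted p = 0.274). Herpud1, named after its values were seen, did not pass on its brightest probe set (0.90, adjusted p = 0.0897) and passed on the other (0.65, adjusted p = 0.0337). Klf9 had 6 tested probe sets, all with a negative difference, of which 4 passed. Both Noct and Klf9 were also lower at 3 h in the IFN-alpha arm (-2.94 and -1.48, limma adjusted p of 4.11e-10 and 3.1e-08) and the IFN-gamma arm (-2.73 and -1.28, adjusted p of 2.43e-09 and 3.84e-07).

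**Figure D4:**
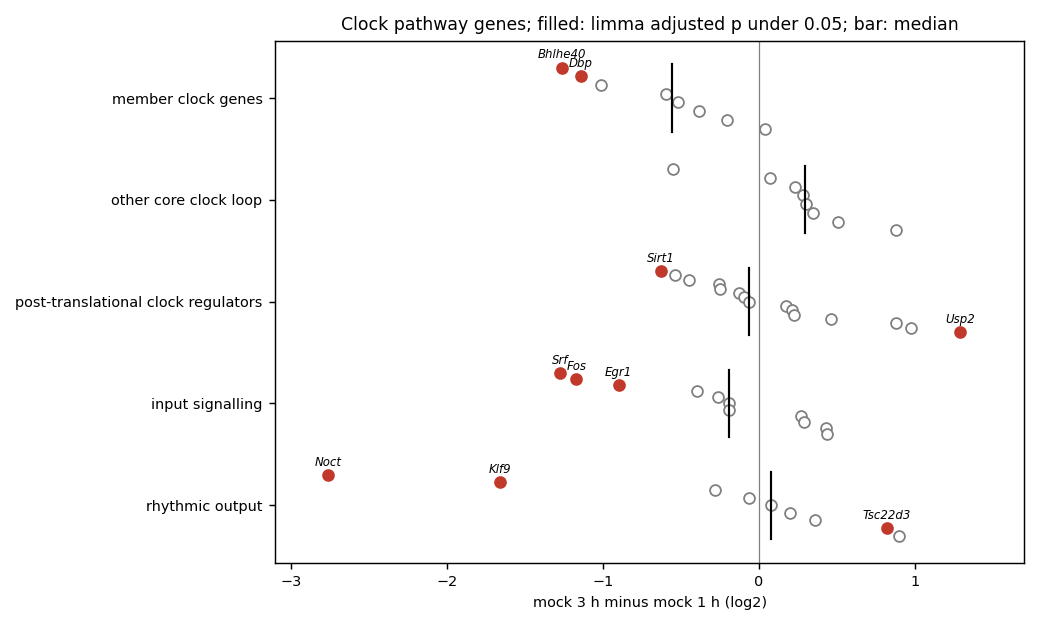
Log2 difference of each tested gene in mock cells at 3 h against 1 h, for the member clock genes and 4 lists of other clock pathway genes, with filled points at a limma adjusted p under 0.05 and a bar at each median. Noct (-2.76), Klf9 (-1.66), Srf (-1.27) and Bhlhe40 (-1.26) are farthest to the left, and Usp2 (1.29) is farthest to the right.

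Likeness between genes was taken as the root mean square difference of mean-centred log2 group means over the 7 groups. Among members, Cry1 and Cry2 were closest (0.157), then Bhlhe40 and Nr1d2 (0.204), and Cry1 and Dbp were farthest apart (0.763). Outside the members, genes with a single symbol and a tested probe set were searched, each on its brightest. The genes closest to Bhlhe40 were Agtr2 (0.0717), Mob3a (0.0963) and Vegfd (0.109). Those closest to Dbp were Rcan2 (0.18), Ap1s2 (0.201) and Vip (0.225), and those closest to Nr1d2 were Ppp2r3a (0.0849), Cemip (0.0861) and Palld (0.0927). The probe sets of Vegfd and Ap1s2 are of a kind that may match more than 1 transcript. All distances of Dbp include its interferon groups at 3 h, which lay below background.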

How the data were processed

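Per the submitters' processing notes the arrays were summarised with GCRMA, and the deposited values are on a log2 scale. The software version, and whether all 24 arrays were summarised together, are not given in the sources used here. The values were used as deposited. Of 45101 probe sets, 64 controls were left out and 19305 that exceeded log2 4 on 3 or more arrays were tested. Symbols came from the platform annotation, which is older than current names, and each gene is represented by its brightest probe set, judged by the mean of all 24 arrays.

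The 7 groups were fitted together in limma 3.58.1 (R 4.3.3, with data.table of version 1.17.8) by group means alone, which left 17 residual degrees of freedom, and 11 comparisons were drawn from that fit. Tests were two-sided, with Benjamini-Hochberg adjustment over all 19305 probe sets and a threshold of 0.05, and the procedure was tested on simulated data. Where the lower group was entirely under log2 4, its arrays were raised to 4 before a fold was taken. Promoter windows were searched and figures drawn with Python 3.11.15 (pandas 2.3.3, numpy 2.4.6, matplotlib 3.10.9).

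The members and gene lists were chosen with earlier results of these data known, so no count over them is independent support. Named were all members, 7 other clock genes whatever their values, up to 4 called genes of each other list, and the 3 genes nearest in profile to each of the 3 members with the largest mock difference. Same-numbered arrays of a time deviated together (correlation above 0.1 in every pair of an interferon group and mock). The fit of group means did not use this pairing, so the p-values and intervals given for interferon against mock ignore it. It was taken up only in the replicate block, which changed no member call within a time. Between times the correlations were -0.268 to 0.179, so the numbers do not pair arrays there. Besides leaving out single arrays, 11 alternatives were run. The precision is limited by the number of arrays.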

Additional observations from a re-analysis of the deposited data

How the results depend on the processing

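Counts of called clock genes changed as follows. Dbp and Per2 did not pass the filter at log2 6 and were not tested under it. The lower counts under that filter are therefore genes left out and not calls lost. At 3 h against 1 h in mock cells (2 called), the filter at log2 6 gave 1, array weights 4, the fit on only the arrays compared 1, and the replicate block 0, and leaving out single arrays gave 1 to 3. In IFN-alpha cells (3) array weights gave 5, and leaving out single arrays left 3. In IFN-gamma cells (5) the log2 6 filter gave 3, only the arrays compared 3 and the replicate block 1, and single arrays 3 to 5. Against mock without 4sU (4) the log2 6 filter gave 2, no filter 2 and leaving out the low 5′ actin arrays 1, and single arrays 1 to 4. Arrays centred on their medians or quantile normalized gave 3 in mock, 4 in IFN-alpha and 6 in IFN-gamma cells, and 6 against mock without 4sU. These rescalings called about as many of all probe sets as the main fit. In each arm, the time comparison called more of all probe sets with array weights, and fewer with only the arrays compared. Changes in the member counts under those settings therefore cannot be told from changes in calling over the whole array. For each interferon against mock at 3 h (0) array weights gave 3 and only the arrays compared 1. Both settings also called more of all probe sets there. Replicate numbers pair no arrays between times, so the replicate block there is one more setting, with adjusted p of 0.11 for Bhlhe40 in mock cells, 0.109 for Tef in IFN-alpha cells, and 0.0695, 0.0774 and 0.107 for Bhlhe40, Dbp and Tef in IFN-gamma cells, and it changed no member call within a time. Values whose sign turned were small. Cry1 in mock cells (0.038) became -0.071 centred on medians, -0.023 after quantile normalization and -0.20 with the replicate block, and was -0.20 to 0.33 without single arrays (-0.016 without replicate 1 of mock 3 h). Cry1 in IFN-alpha cells (-0.075) became 0.040 with array weights and 0.18 without the low actin arrays, with -0.26 to 0.18 without single arrays. Cry1 in IFN-gamma cells (-0.21) became 0.021 with array weights and 0.078 without the low actin arrays, with -0.42 to 0.078 without single arrays, and against mock without 4sU (-0.39) it became 0.077 without the low actin arrays. Per1 in mock cells (-0.60) became 0.061 with the replicate block, with -1.14 to 0.061 without single arrays, and in IFN-gamma cells (-0.24) 0.26 with the block, with -0.62 to 0.26 without single arrays. Centring lowered the median over all probe sets to -0.051 in mock cells, against 0.057 as deposited. The cause was not tested. Array weights were estimated by a search that stopped before its tolerance. The 1 h groups have the wider spread, which limits what Per1 and Cry1 can show.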

Other observations

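In the lists of other clock pathway genes, the interferon arms were also read at 3 h against 1 h, with genes chosen because limma called them there. Of all probe sets, 4.57% fell and 4.71% rose in the IFN-alpha arm, and 5.91% and 7.31% in the IFN-gamma arm. On brightest tested probe sets, 3 of 11 input genes fell and 1 rose in IFN-alpha cells, and 3 fell and 2 rose in IFN-gamma cells. Of 9 output genes, 2 fell and 0 rose in IFN-alpha cells, and 2 fell and 3 rose in IFN-gamma cells. Of the 11 tested genes of serum and cAMP input, Srf, Fos and Egr1 fell in the IFN-alpha arm (-1.18, -2.08 and -1.06) and the IFN-gamma arm (-1.46, -1.47 and -0.91), though the other Srf probe set passed in neither. Crem, a factor of cAMP signalling, rose in IFN-gamma cells on both of its tested probe sets (2.48, adjusted p = 2.34e-06, and 1.06, adjusted p = 0.0306). In IFN-alpha cells 1 of those 2 passed (0.95, adjusted p = 0.0319), with -0.024 on the other. Dusp1, a phosphatase of MAP kinases, rose by 1.09 in IFN-gamma cells (adjusted p = 0.0231). Its mean there went from 7.66 at 1 h to 8.75 at 3 h. Both lay below the mock means of the same times, 9.24 and 9.53.

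Of the 9 tested rhythmic output genes, Nampt, an enzyme of NAD synthesis, passed on all 3 probe sets in IFN-gamma cells (0.84 to 1.19) and on 2 of 3 in IFN-alpha cells. Herpud1, a gene of endoplasmic reticulum stress, rose in IFN-gamma cells by 1.15 and 0.74 on its 2 probe sets, and Tspan4 by 0.95. Per3 of the core loop, with 1 of 6 probe sets tested, fell by 0.82 in IFN-gamma cells (adjusted p = 0.0462). In IFN-alpha cells its difference was -0.82 (adjusted p = 0.0571). The Per3 means at 3 h, 3.79 in IFN-gamma and 3.76 in IFN-alpha cells, lay below the background level of log2 4. The size of these 2 differences thus rests partly on signals below background. Usp2 rose by 1.18 in IFN-alpha cells (limma adjusted p = 0.00454), with 0.65 on its other probe set (adjusted p = 0.392). In IFN-gamma cells it differed by -0.11 (adjusted p = 0.799). Sirt1 fell by 0.65 in IFN-gamma cells (adjusted p = 0.036), with -0.35 in IFN-alpha cells (adjusted p = 0.299). Rora passed in IFN-gamma cells on 2 probe sets (0.88 and 0.90, adjusted p of 0.0386 and 0.0253) and not on its brightest (0.22, adjusted p = 0.537). Whether these differences depend on the arm was not tested.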
